A study of Homo sapiens with 9 samples.

Results

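OPRK1, CAMK2N1, CCN3 and MET are 4 genes that earlier work on prostate cells describes as lowered by androgen, and they stand here apart from the UGT2B enzymes, the best known group of that kind. They were taken by gene symbol from the count table, where 4 of 60880 gene rows carry these names, and each symbol matched 1 row. The RNA came from LNCaP, a human prostate cancer line that grows in response to androgen, in 3 groups of 3 libraries. The rescue cells carried overexpressed UGT2B28 in the knockdown background and were selected with G418, the knockdown cells (1 line, titled KD4) had UGT2B28 knocked down and were selected with puromycin, and the control cells are titled NT, with no antibiotic named for them. All groups are labelled 24 h and grew in RPMI with fetal bovine serum, and no group had androgen added or withdrawn, so the response of the 4 genes to androgen itself was not measured.

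UGT2B28 is a UDP-glucuronosyltransferase, one of a family of enzymes that attach glucuronic acid to steroids such as androgens and so make them inactive and ready for export. Androgens raise some genes in prostate cells and lower others, and the lowered ones return when hormone is withdrawn. OPRK1 encodes the kappa opioid receptor, a receptor on the cell surface that couples to inhibitory G proteins. CAMK2N1 encodes a small inhibitor of calcium/calmodulin-dependent kinase II and has been described as a growth suppressor in prostate cancer. CCN3 (formerly NOV) encodes a secreted matricellular protein, and MET encodes the receptor tyrosine kinase for hepatocyte growth factor.

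CAMK2N1 was the most abundant of the 4 genes, and it has a paralogue, CAMK2N2, that encodes a second inhibitor of the same kinase. Their annotated coding sequences are shown without the stop codon to make plain how far reads of that part can tell the genes apart. They come from the GENCODE v29 transcripts, with CAMK2N1 on chromosome 1 and CAMK2N2 on chromosome 3. Capitals mark the longest run of bases that both share.
CAMK2N1: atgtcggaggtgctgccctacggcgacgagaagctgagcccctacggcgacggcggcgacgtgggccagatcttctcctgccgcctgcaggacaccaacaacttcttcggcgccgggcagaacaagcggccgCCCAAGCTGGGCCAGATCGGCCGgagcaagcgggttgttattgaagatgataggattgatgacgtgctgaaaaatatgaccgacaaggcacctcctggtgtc
CAMK2N2: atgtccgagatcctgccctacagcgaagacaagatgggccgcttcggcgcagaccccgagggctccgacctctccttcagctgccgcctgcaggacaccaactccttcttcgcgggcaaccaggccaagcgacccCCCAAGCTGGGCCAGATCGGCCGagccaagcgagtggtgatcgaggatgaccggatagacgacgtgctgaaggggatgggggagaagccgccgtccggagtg
The coding sequences are 234 and 237 bases long and are identical at 71.7% of aligned positions. The longest run in common is 23 bases, far shorter than the 150-base paired reads named in the labels. Annotated exons span 2615 bases in CAMK2N1 and 1362 in CAMK2N2, and the parts outside the coding sequence were not compared.

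Each value below is a raw count or a level in CPM, the count scaled to a common library size. Totals were 20300744 to 26459528 counts per library, so 3 counts, the level below which 1 library shows little, came to 0.112 to 0.147 CPM. UGT2B28 itself had 1124, 1554 and 1857 counts in the rescue libraries, 17, 8 and 1 in the knockdown libraries and 25, 4 and 10 in the control libraries, so a lower level in knockdown was not detectable at this depth (edgeR adjusted p = 0.518) and the libraries are named by their labels. All 6 luminal prostate markers were above 1 CPM in each group, with sums of 6913 to 7595 CPM in rescue, 6520.2 to 6901 CPM in knockdown and 3377 to 3629.6 CPM in control. The androgen-induced genes KLK3 (4407, 3750.1 and 1428 CPM in rescue, knockdown and control) and TMPRSS2 (967, 815 and 236 CPM) carried most of that difference, whereas the keratins KRT8 (872, 1063 and 1012 CPM) and KRT18 (493, 565 and 470.4 CPM) were highest in knockdown. Of the markers of other cells, PTPRC and CD3E (leukocytes) had 0 counts in all 9 libraries, DCN (stroma) and TP63 (basal cells) had at most 4 counts in any group, and COL1A1 was at 63.2, 48.4 and 68.2 CPM in rescue, knockdown and control. The remaining leukocyte marker, CD68, was at 2.61, 3.15 and 2.77 CPM in the same order. Among neuroendocrine markers SYP was at 1.40, 1.06 and 0.644 CPM, and CHGA and NCAM1 had at most 6 counts in any group. In those groups VWF (endothelium) was at 6.47, 5.75 and 2.43 CPM, KRT14 (basal cells) at 3.41, 4.11 and 1.77 CPM and COL3A1 (stroma) at 0.123, 0.0828 and 0.890 CPM. Summed over each list, basal markers were at 2.94 to 4.72, 3.37 to 5.48 and 1.53 to 2.78 CPM, and stromal markers at 58.0 to 70.9, 42.6 to 52.7 and 62.9 to 72.5 CPM, and the part of these in the results was not tested. Whether the replicates were separate cultures is not given, so p-values measure the spread between these libraries only, and the antibiotic cannot be told apart from the construct.

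OPRK1 was nearly absent from the rescue and knockdown cells and well detected in control cells, the widest difference among the 4 genes. CAMK2N1 moved the other way, higher in knockdown than in control, and then stood lower in rescue than in knockdown. CCN3 and MET were close to the limit of detection in all 9 libraries, and no difference in either was called. Genes were called at an adjusted p under 0.05 in edgeR's quasi-likelihood test with Benjamini-Hochberg adjustment over 18389 tested genes. OPRK1, CAMK2N1 and MET passed the filter on low counts, and CCN3 did not.

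**Figure D1:**
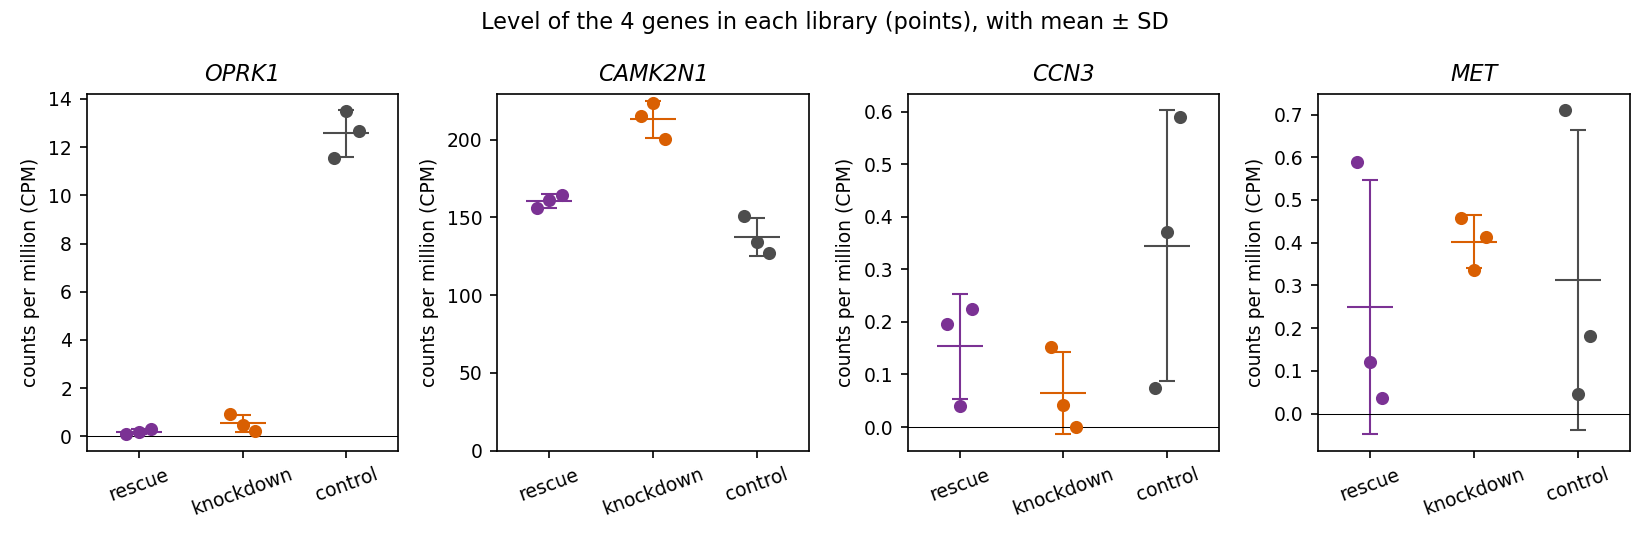
Level in CPM (vertical axis, linear) of OPRK1, CAMK2N1, CCN3 and MET in the rescue, knockdown and control groups. Points are libraries (3 per group), the horizontal mark is the mean and the bar is the SD; OPRK1 is under 1 CPM in every rescue and knockdown library and above 11 CPM in every control library.

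In knockdown against control, 2 of the 3 tested genes were called, 1 in each direction, where 32.1% of all tested genes were called. In rescue against knockdown 1 of 3 was called lower, against 10.1% of all tested genes (5.2% higher and 4.88% lower). In rescue against control 2 of 3 were called, against 37.8%. With 3 tested genes these shares cannot be set apart from the background. The last comparison shares its libraries with the first 2, so its values stand beside theirs and are not a further test.

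The kappa opioid receptor gene OPRK1 (ENSG00000082556.10_2, chromosome 8) had 2, 4 and 8 counts in the rescue libraries, 24, 11 and 5 in the knockdown libraries and 309, 291 and 279 in the control libraries. Every control library lay far above every other library, while rescue and knockdown overlapped. The means were 0.186 ± 0.103 CPM in rescue, 0.536 ± 0.348 CPM in knockdown and 12.6 ± 0.971 CPM in control (SD, n = 3 each). In these bulk samples fewer OPRK1-expressing cells and less OPRK1 RNA per cell cannot be told apart.

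OPRK1 fell by 4.50 on the log2 scale in knockdown against control (SE 0.31, edgeR adjusted p = 2.53e-12), to 4.26% of the control mean. Only 29 of the 18389 tested genes, OPRK1 among them, had a fold change as low or lower, which is 0.158% of them. It also fell by 5.99 in rescue against control (SE 0.36, adjusted p = 1.03e-13), to 1.48% of the control mean. The pooled counts, 14 in rescue and 879 in control, gave a ratio of 0.0155 with a 95% counting interval of 0.00846 to 0.0262.

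Between rescue and knockdown OPRK1 was not called (-1.49 on the log2 scale, SE 0.49, edgeR adjusted p = 0.0521). The comparison rests on 14 counts in rescue and 40 in knockdown, a ratio of 0.349 with a counting interval of 0.175 to 0.654. OPRK1 passed the filter through its control level, and a fit of rescue and knockdown alone left it out. Knockdown replicate 1 held 24 of the 40 counts, and without it the log2 fold change was -0.84 (adjusted p = 0.416), whereas without knockdown replicate 3 it was -1.82 with a call (adjusted p = 0.0184). DESeq2 called the gene (adjusted p = 0.0294) and limma voom did not (adjusted p = 0.320). On average rescue cells therefore had no OPRK1 level nearer to control than knockdown cells had, and whether theirs was lower depended on the tool and on single libraries.

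**Figure D2:**
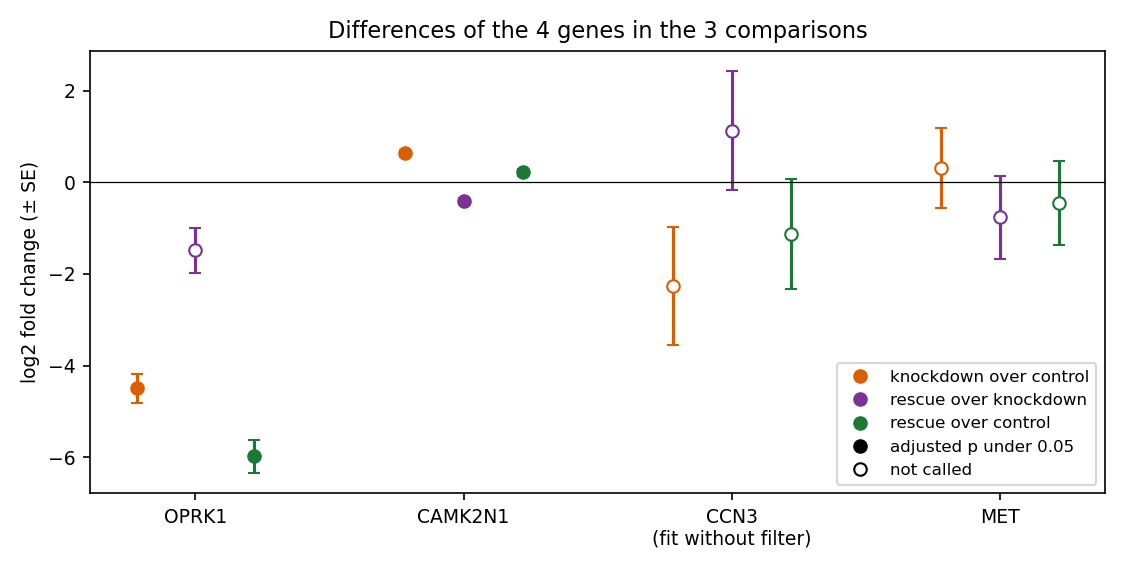
Log2 fold change (vertical axis) with its SE for OPRK1, CAMK2N1, CCN3 and MET in knockdown over control, rescue over knockdown and rescue over control; filled points have an adjusted p under 0.05. CCN3 is from a fit without the filter on low counts. OPRK1 lies at -4.50 and -5.99 against control, and CAMK2N1 changes sign between the first 2 comparisons.

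The receptor's relatives and ligands were mostly silent. The prodynorphin gene PDYN, whose peptides are the natural ligands of the kappa receptor, and POMC, the precursor of beta-endorphin, had 0 counts in all 9 libraries. PENK and PNOC, precursors of enkephalins and nociceptin, had 0 and 0 counts in rescue, 1 and 1 in knockdown and 0 and 6 in control. OPRM1, the mu receptor, had 5, 7 and 7 counts over the libraries of rescue, knockdown and control. OPRD1, the delta receptor, was tested and not called in any comparison (0.525 ± 0.157, 0.648 ± 0.498 and 0.262 ± 0.0992 CPM in the same order).

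OPRL1, the nociceptin receptor and the remaining member of the family, was the other opioid receptor gene with a call. It had 17, 16 and 12 counts in rescue, 3, 0 and 5 in knockdown and 30, 28 and 14 in control. Knockdown libraries were all below both other groups, which overlapped. OPRL1 fell by 3.12 in knockdown against control (SE 0.76, edgeR adjusted p = 0.00205) and rose in rescue against knockdown by 2.45 (SE 0.78, adjusted p = 0.0418), a call that 8 of 16 alternatives lost (highest adjusted p = 0.172). Rescue and control were not called apart (-0.68, SE 0.63, adjusted p = 0.430). The difference in behaviour between OPRL1 and OPRK1 was not itself tested.

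Genes that carry or end the signal of such receptors were expressed, and all 11 listed Gi/o subunits, arrestins and receptor kinases were tested. In knockdown against control 1 was higher and 3 were lower (median log2 fold change -0.09, against 0.01 over all tested genes), a share near the 32.1% called over all tested genes. GNAI1, an inhibitory G protein alpha subunit, averaged 8.60 ± 0.705 CPM in rescue, 18.2 ± 0.359 CPM in knockdown and 25.2 ± 0.888 CPM in control. It fell by 0.47 in knockdown against control (SE 0.12, adjusted p = 0.00214) and fell by 1.08 in rescue against knockdown (SE 0.12, adjusted p = 4.18e-07), with no overlap between any groups. GNAZ, a further subunit of that class, fell by 0.74 in knockdown against control (SE 0.13). GRK3, a kinase that desensitizes receptors, fell by 1.07 (SE 0.13), and in neither was rescue called apart from knockdown (adjusted p = 0.208 and 0.829). In rescue against knockdown 1 of the 11 was higher and 2 were lower (median -0.04, against -0.005 over all genes, of which 10.1% were called). The 2 calls beside GNAI1, GNAI2 at 0.28 and the arrestin ARRB2 at -0.26, were each lost without some libraries.

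CAMK2N1 (ENSG00000162545.5_2, chromosome 1), the kinase II inhibitor, had 3179, 4019 and 4395 counts in rescue, 5638, 5313 and 4354 in knockdown and 4023, 2892 and 2802 in control. As levels these were 156, 161 and 165 CPM in rescue, 215, 223 and 200.4 CPM in knockdown and 151, 134 and 127 CPM in control. No 2 groups overlapped, with knockdown highest, rescue between and control lowest. Per kilobase of annotated exon, group means were 61.4, 81.4 and 52.5 CPM in rescue, knockdown and control, against 0.0324, 0.0934 and 2.19 CPM per kilobase for OPRK1.

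CAMK2N1 rose 1.55-fold in knockdown against control (0.63 on the log2 scale, SE 0.07, edgeR adjusted p = 9.5e-08), and 11.1% of tested genes had a fold change as high or higher. In rescue against knockdown it fell by 0.41 (SE 0.07, adjusted p = 0.000367), to 75.4% of the knockdown mean. Both calls held in all 17 alternatives. Rescue was above control by 0.22 on that scale (SE 0.07, adjusted p = 0.0172), a call lost without control replicate 2 (adjusted p = 0.0627), control replicate 3 (0.118), rescue replicate 2 (0.0503) or rescue replicate 3 (0.0572). CAMK2N1 was thus the 1 gene of the 4 whose knockdown difference was called in the opposite direction in rescue, and both comparisons hold the same knockdown libraries.

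The paralogue CAMK2N2, whose sequence is shown above, was at 3.79 ± 0.230 CPM in rescue, 4.92 ± 0.303 CPM in knockdown and 4.73 ± 0.608 CPM in control and was called in no comparison. It shares 373 exon bases with EEF1AKMT4 on the opposite strand, and since the strand setting of the counting is not given, its counts are uncertain. Of the kinase II subunits, CAMK2D and CAMK2G, the widely expressed ones, were called in no comparison, with log2 fold changes between -0.10 and 0.03. CAMK2B, known best from brain and muscle, averaged 16.6 ± 1.67 CPM in rescue and 9.86 ± 1.94 CPM in control (0.75 on the log2 scale, adjusted p = 0.000209), and CAMK2A had 0, 2 and 0 counts in rescue, knockdown and control.

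Calmodulin, the calcium sensor that switches these kinases on, is encoded by several genes with the same protein product. CALM2 averaged 167 ± 11.5 CPM in rescue, 126 ± 11.3 CPM in knockdown and 89.1 ± 11.7 CPM in control, rising in knockdown against control by 0.51 (SE 0.09) and in rescue against knockdown by 0.40 (SE 0.09). CALM3 rose in the same 2 comparisons by 0.28 (SE 0.07) and 0.42 (SE 0.07). Calmodulin genes have close processed copies elsewhere in the genome, so their counts are less certain than those of single-copy genes. CAMKK2, an upstream kinase known to be raised by androgen in prostate cancer, averaged 98.3 ± 6.23 CPM in rescue and 68.9 ± 7.58 CPM in knockdown (0.51 on the log2 scale, SE 0.08, adjusted p = 0.000118). Of 12 tested genes of the calmodulin kinase list, CAMK2N1 included, 3 were higher and 3 lower in knockdown against control (median -0.02), where 32.1% of all tested genes were called. In rescue against knockdown 5 were higher and 1 lower (median 0.15), where 10.1% of all tested genes were called.

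CCN3 (ENSG00000136999.4_2, chromosome 8) had 4, 1 and 6 counts in rescue, 4, 1 and 0 in knockdown and 2, 8 and 13 in control. The groups overlapped in each comparison, and control replicate 1 had fewer reads than single libraries of both other groups. Levels were 0.154 ± 0.0993 CPM in rescue, 0.0649 ± 0.0788 CPM in knockdown and 0.345 ± 0.259 CPM in control. Without the filter on low counts, the log2 fold change in knockdown against control was -2.27 (SE 1.28, edgeR adjusted p = 0.268). The ratio of the pooled counts, 5 in knockdown and 23 in control, was 0.213 with a counting interval of 0.0633 to 0.573, so counting error alone would set the groups apart and the spread between control libraries does not. Rescue against knockdown was at 1.13 (SE 1.30, adjusted p = 0.707) and rescue against control at -1.13 (adjusted p = 0.556).

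The other CCN genes were low as well. CCN1, a matrix-associated growth regulator and the most abundant, was at 8.30 ± 1.34 CPM in rescue, 5.96 ± 0.624 CPM in knockdown and 5.57 ± 1.55 CPM in control. Its difference was called in rescue against control alone (0.56, adjusted p = 0.0280), where the groups overlapped, and the call was lost without any of 4 libraries (highest adjusted p = 0.147). CCN6 was not called in any comparison. CCN2, CCN4 and CCN5 had between 0 and 11 counts per group. Of the receptors through which CCN proteins act, ITGA5, an integrin subunit for fibronectin, fell by 0.83 in knockdown against control (SE 0.09, adjusted p = 9.1e-09), and ITGAV and ITGA6 rose by 0.39 each.

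NOTCH1, a receptor that CCN3 is known to bind, was lower in knockdown than in both other groups. It had 134, 131 and 152 CPM in rescue, 105, 98.8 and 94.4 CPM in knockdown and 171, 124 and 125 CPM in control. Knockdown libraries lay below all others, and rescue and control overlapped. NOTCH1 fell by 0.50 in knockdown against control (SE 0.10, adjusted p = 0.000523), rose in rescue against knockdown by 0.49 (SE 0.10, adjusted p = 0.00227) and was at -0.01 between rescue and control (adjusted p = 0.960). Both calls held in all 17 alternatives.

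MET (ENSG00000105976.14_3, chromosome 7), the growth factor receptor, had 12, 3 and 1 counts in rescue, 12, 8 and 9 in knockdown and 19, 1 and 4 in control. Rescue and control each spanned more than the whole range of knockdown, and 1 library held most of the reads in each: replicate 1. The means were 0.249 ± 0.297 CPM in rescue, 0.403 ± 0.0613 CPM in knockdown and 0.313 ± 0.351 CPM in control. On the log2 scale the difference was 0.31 in knockdown against control (SE 0.87, edgeR adjusted p = 0.824), -0.76 in rescue against knockdown (SE 0.90, adjusted p = 0.692) and -0.45 in rescue against control (SE 0.91, adjusted p = 0.747). Counting intervals of the pooled ratios ran from 0.666 to 2.12, from 0.279 to 1.05 and from 0.323 to 1.28 in the same order. These cover counting error only. Libraries of rescue and control also differed widely, so differences beyond these intervals may have gone undetected as well. Signs depended on single libraries: knockdown against control was at -0.17 without control replicate 2, and rescue against control was at 1.02 when control replicate 1 was left out.

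Androgen has been described as lowering MET by interference with the Sp1 factor at the MET promoter. The 250 bases upstream of the annotated gene start are therefore shown (RefSeq, GRCh38.p14, chr7:116671946-116672195, plus strand; the reads were counted on hg19), with the Sp1 core letters GGGCGG in capitals.
MET promoter: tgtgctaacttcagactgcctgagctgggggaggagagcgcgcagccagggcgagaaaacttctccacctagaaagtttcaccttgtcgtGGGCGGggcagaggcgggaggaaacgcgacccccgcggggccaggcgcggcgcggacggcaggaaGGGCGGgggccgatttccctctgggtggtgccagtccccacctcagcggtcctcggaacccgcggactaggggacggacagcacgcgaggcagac
GGGCGG was searched on both strands (as CCGCCC on the other) and is found 2 times, starting 160 and 95 bases before the gene start. At least 1 match lies in the same window of 42.6% of 35116 promoters in that table. The half-site letters AGAACA of steroid receptors (TGTTCT on the other strand), held by 12.4% of these promoters, are not in the window. Neither result says whether a factor binds there. The promoter table matched 1 of the 4 genes.

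The ligand gene HGF had 0 counts in all 9 libraries, and MST1R, the sister receptor of MET, had 25, 15 and 3 counts in rescue, knockdown and control. Of the proteases that activate the ligand, ST14 and HPN were abundant, whereas HGFAC had 6, 6 and 19 counts in the same order and was not tested. ST14, which encodes matriptase, had 213, 195 and 194 CPM in rescue, 159, 140.2 and 153 CPM in knockdown and 114, 107 and 104 CPM in control. No groups overlapped, and ST14 rose in knockdown against control by 0.47 (SE 0.07, adjusted p = 9.02e-06) and in rescue against knockdown by 0.41 (SE 0.07, adjusted p = 0.000248). HPN (hepsin) was at 313 ± 17.4 CPM in rescue, 301 ± 11.6 CPM in knockdown and 333 ± 17.9 CPM in control, with no call. The inhibitor SPINT2 rose in knockdown against control by 0.28 (adjusted p = 0.00643), and its relative SPINT1 was called in none of the 3 comparisons.

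Downstream of MET, the docking protein GAB1 averaged 16.6 ± 1.61 CPM in rescue, 13.5 ± 1.82 CPM in knockdown and 22.5 ± 4.21 CPM in control and fell by 0.74 in knockdown against control (adjusted p = 0.000124). SOS1, an activator of RAS, fell by 0.46 (adjusted p = 0.00791), a call lost without control replicate 1 or knockdown replicate 2. Of the 7 adaptors and regulators, 0 were higher and 2 lower in knockdown against control (median -0.05), near the 32.1% of all tested genes. GRB2 alone was called in rescue against knockdown, higher (list median 0.07, and 10.1% of all tested genes called), and that call was lost when any of 4 libraries was left out (highest adjusted p = 0.121).

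**Figure D3:**
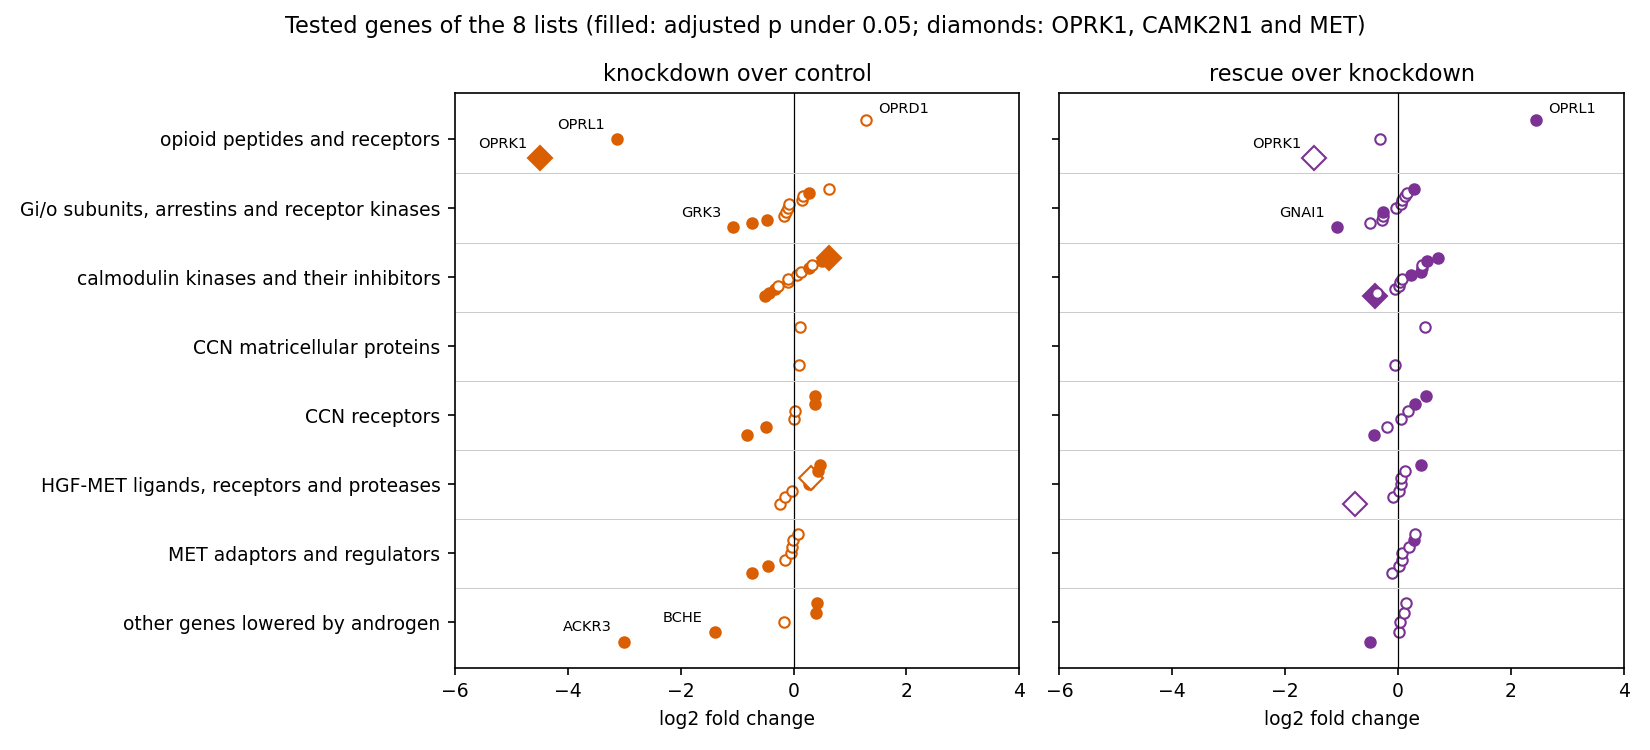
Log2 fold change (horizontal axis) of every tested gene in 8 lists, for knockdown over control (left) and rescue over knockdown (right). Filled symbols have an adjusted p under 0.05 and diamonds mark OPRK1, CAMK2N1 and MET; outside the opioid receptors, ACKR3 is the gene farthest from 0 in knockdown over control.

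Other genes described as lowered by androgen also went both ways. ACKR3, an atypical chemokine receptor that binds CXCL12, had 9.12, 8.30 and 5.47 CPM in rescue, 7.25, 5.09 and 9.99 CPM in knockdown and 54.7, 58.9 and 64.9 CPM in control. Control libraries were all far above the others, which overlapped, as for OPRK1. ACKR3 fell by 3.00 in knockdown against control (SE 0.21, adjusted p = 5.39e-08) and was at 0.03 in rescue against knockdown (adjusted p = 0.959). BCHE, butyrylcholinesterase, averaged 13.0 ± 0.686 CPM in rescue, 18.4 ± 0.629 CPM in knockdown and 48.7 ± 3.26 CPM in control. It fell by 1.40 in knockdown against control (SE 0.10, adjusted p = 1.21e-11) and fell by 0.50 in rescue against knockdown (SE 0.11, adjusted p = 0.0024).

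FOLH1, which encodes prostate-specific membrane antigen and has a close copy in the genome, averaged 484 ± 25.6 CPM in rescue, 450.1 ± 12.7 CPM in knockdown and 338 ± 12.1 CPM in control. It rose by 0.41 in knockdown against control (SE 0.07, adjusted p = 3.77e-05). BCL2 was not called, and PROM1 had 0 counts throughout. With CAMK2N1 higher and OPRK1 lower, genes of this description thus did not move in 1 direction in knockdown.

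Over all 8 lists without the 4 genes, 50 of 65 genes were tested. In knockdown against control 10 were higher and 13 lower, 46% in all, against 32.1% of all tested genes, with a median log2 fold change of -0.04. In rescue against knockdown 11 were higher and 4 lower, 30% against 10.1%, with a median of 0.06. These lists were drawn up from what the genes do and with earlier results of these data known, so the shares are a description.

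Genes with the most similar pattern were sought by the distance between log2 CPM values over the 9 libraries, each gene centred on its own mean. For OPRK1 the nearest were DNAAF11, a gene for assembly of ciliary dynein arms, LHX6, a homeobox transcription factor, and GDNF-AS1, a noncoding RNA antisense to GDNF, at distances of 1.84, 1.99 and 2.06. DNAAF11 averaged 0.357 ± 0.124 CPM in rescue, 0.330 ± 0.0780 CPM in knockdown and 11.4 ± 1.29 CPM in control, and LHX6 had 0, 0 and 218 counts, so it was at least 74.2-fold lower in knockdown than in control (floor of 3 counts over the group). GDNF-AS1 had 8, 9 and 277 counts, which cannot be told apart from reads of the opposite strand. Each of these shares with OPRK1 a level in control that is all but gone from rescue and knockdown.

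For CAMK2N1 the nearest were ELOVL1, an enzyme that lengthens fatty acids, MAP3K14, a kinase of noncanonical NF-kB signalling, and TBPL1, a relative of the TATA-binding protein, at distances of 0.169, 0.186 and 0.253. ELOVL1 averaged 165 ± 2.02 CPM in rescue, 224 ± 13.2 CPM in knockdown and 145 ± 5.24 CPM in control, close to CAMK2N1 in level as well as in shape. Pearson correlations over the 9 libraries were 0.952 to 0.978 for these genes and 0.964 to 0.970 for those nearest to OPRK1, and since libraries of a group share their condition they are given as descriptions. The genes nearest to MET (ENSG00000232640, PRDM11 and COX6CP1, at distances of 1.23 to 1.46) were at 0.269 to 0.688 CPM, near the level of 3 counts, and CCN3 was not compared.

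**Figure D4:**
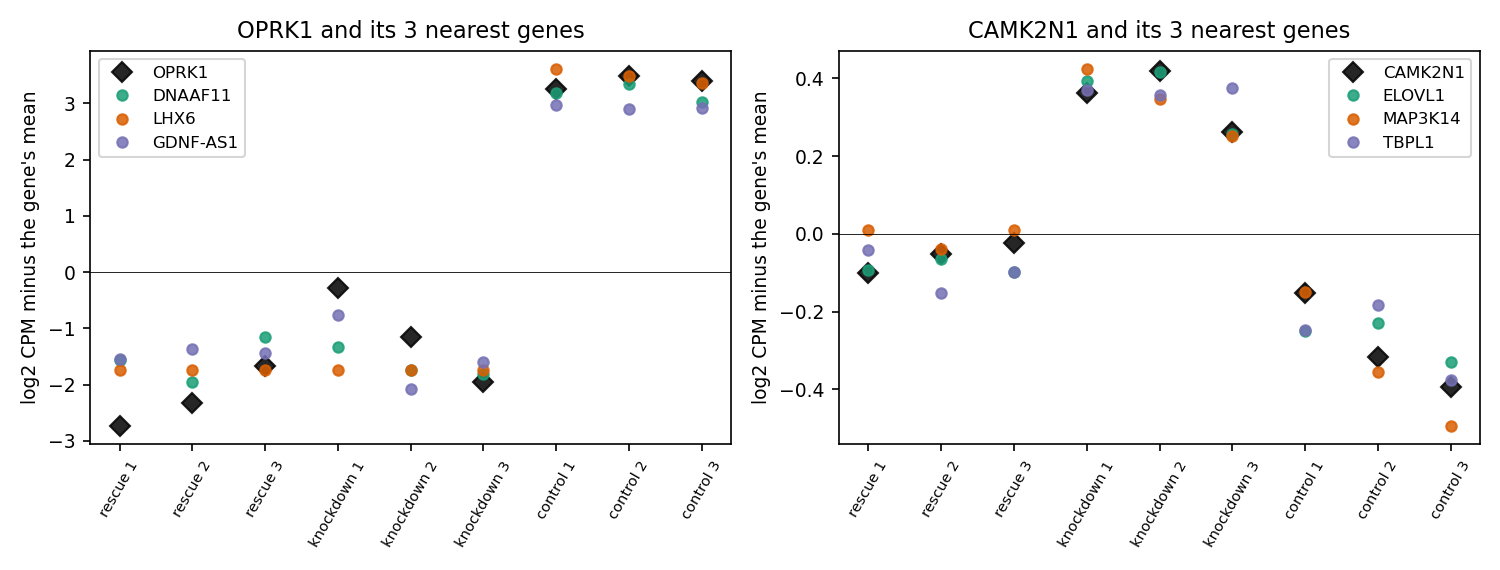
Log2 CPM minus each gene's own mean (vertical axis) in the 9 libraries (horizontal axis, by group) for OPRK1 (left) and CAMK2N1 (right) as diamonds, with the 3 genes nearest to each as circles. The OPRK1 set is high in control libraries alone, and the CAMK2N1 set is highest in knockdown.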

How the data were processed

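RNA of 9 LNCaP libraries was sequenced. Per the submitters' processing notes the tools were HTSeq, HISAT2, cutadapt and FastQC on build hg19. The authors deposited, for each library, whole-number counts by gene; tool versions and the strand setting are not stated. Reads in genes were 40.3% to 42.9% of each table; summary rows (48.8% to 50.7% in no gene, 2.26% to 2.67% ambiguous, 5.26% to 7.62% not unique) were left out. Of 60880 gene identifiers 56414 matched a symbol. GENCODE v29, of another build, served for exon lengths, chromosomes and overlaps.

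The deposited counts were tested with edgeR 4.0.16 (R 4.3.3), using filterByExpr (minimum count 10), TMM scaling and a robust quasi-likelihood fit of the 3 groups together, with 6 residual degrees of freedom. The SE was worked back from the quasi-likelihood F. DESeq2 1.42.0, limma 3.58.1, other scalings and filters, and each library left out were alternatives. Counting intervals are exact, at 95%, and like floors cover counting error only. Scripts were tested on simulated data. The 4 genes, the lists and the tests were chosen with earlier results of these data known. Names were taken by rule: the 4 genes, the 3 nearest to each by centred log2 CPM (prior count 2), and per list the receptors, ligands and paralogues with up to 4 called genes per comparison, of which a part is named. CAMK2A, CAMK2D, CAMK2G, HGFAC, HPN, SPINT1, BCL2 and PROM1 lie outside it and were named after their values were seen. Some listed genes enter the counts and sums but are not reported here.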

Additional observations from a re-analysis of the deposited data

How the results depend on the processing

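In knockdown and in rescue against control OPRK1 kept its sign and call in all 17 alternatives, at -5.14 to -4.16 and at -6.51 to -5.73, as did CAMK2N1 in knockdown against control (0.58 to 0.70) and in rescue against knockdown (-0.45 to -0.37). Over all tested genes, deviations of same-numbered replicates were nearly uncorrelated (correlations of -0.04 to 0.08 in 9 pairs), and the numbers were not taken as pairs. Such correlations cannot exclude a shared deviation in part of the genes. The replicate number as a block gave -1.46 for OPRK1 in rescue against knockdown (adjusted p = 0.0545), 0.81 for MET in knockdown against control and 6348, 2319 and 7363 calls in knockdown against control, rescue against knockdown and rescue against control, where 5899, 1854 and 6946 were called without it. The block changed no call of OPRK1, CAMK2N1 or MET, and CCN3 was not fitted with it. OPRK1 in rescue against knockdown passed the threshold in DESeq2 (-1.50), without the filter (-1.49) and with a mean of at least 1 CPM required (-1.48), and ranged from -2.01 to -0.84 with single libraries left out; the cause was not tested. The next ranges are with single libraries left out. CAMK2N1 in rescue against control ranged from 0.17 to 0.30. MET ranged from -0.17 to 1.77 in knockdown against control and from -2.30 to -0.21 in rescue against knockdown. In rescue against control MET ranged from -1.97 to 1.02. CCN3 (log2 ratio of pooled CPM, no test) ranged from -3.89 to -1.57 in knockdown against control. Its range was 0.61 to 2.80 in rescue against knockdown and -1.66 to -0.44 in rescue against control. Calls in rescue against knockdown ranged from 1196 (without rescue replicate 1) to 2364 (without control replicate 1, which is in neither group). Control replicate 1 stood apart from its group. The chi-square of counts per degree of freedom was 21.8 and 18.2 between it and replicates 2 and 3, and 5.05 between those. MET had no value where the stricter filter, or the filter on a pair of groups, left it out. OPRK1 in rescue against knockdown had none in the fit of those groups alone, and CCN3 had none in DESeq2, limma voom and the replicate block. Of 80 calls of the listed and nearest genes, 61 held in every alternative that gave a value, 19 were lost in at least 1 and 0 turned sign.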

Other observations

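In replicates 1, 2 and 3, OPRK1 had 2, 4 and 8 counts in rescue and UGT2B28 had 1124, 1554 and 1857, the same order. In knockdown the orders were also the same, with 24, 11 and 5 counts of OPRK1 and 17, 8 and 1 of UGT2B28. In control they were opposite on the CPM scale, with 11.6, 13.5 and 12.7 CPM of OPRK1 and 0.936, 0.186 and 0.454 CPM of UGT2B28. With 3 libraries per group no relation between the genes can be tested, and library totals were 21753045 to 26145310 counts in knockdown and 20300744 to 26459528 in rescue.

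The share of gene counts from mitochondrial genes was 3.19% to 3.86% in rescue, 2.56% to 2.89% in knockdown and 4.64% to 5.68% in control; the part of this in the values above was not tested. A gene on the strand opposite OPRK1, AC009646.2, shares 0 exon bases with it and had 6 counts over the 9 libraries.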
